A study of Mus musculus with 12 samples.

Results

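The 36 nuclear-encoded subunit genes of mitochondrial complex I were followed in the hearts of adult mice with and without a cardiac Parkin deletion. They were chosen by symbol, as the Ndufa, Ndufb, Ndufc, Ndufs and Ndufv genes of the deposited count table together with Ndufab1, out of 23457 rows. Ndufa4 and Ndufa4l2 and the pseudogenes were left out. The rule itself used no measured value, but the set was chosen with earlier results of these data known. Reads were counted for 35 of the 36 genes, and these 35 passed the low-count filter and entered the test.

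Complex I, the NADH:ubiquinone oxidoreductase, is the entry point of electrons from NADH into the respiratory chain of the inner mitochondrial membrane, and it pumps protons as it passes the electrons to ubiquinone. Its matrix arm has an N module, which oxidises NADH, and a Q module, which reduces ubiquinone, and its membrane arm holds the proton pumps, whose core proteins are encoded by mitochondrial DNA. The heart beats on a continuous supply of ATP from this chain. Parkin, a ubiquitin ligase, tags failing mitochondria so that they are cleared by mitophagy.

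The series holds 12 libraries of polyadenylated RNA from C57BL/6J mice. Per the labels, the noninduced group (n = 6) had floxed alleles and no Cre, and the Parkin KO group (n = 6) had floxed alleles with MerCreMer, a Cre recombinase fused to mutated estrogen receptor domains that tamoxifen sends to the nucleus. All samples are described as adult and as taken 9 to 10 weeks after tamoxifen. The labels give MerCreMer to the Parkin KO group alone, so that effects of Parkin loss and of MerCreMer cannot be told apart. The tissue is given as heart in the sample characteristics and as frozen ventricular apex in the extraction protocol.

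Libraries held 11610507 to 16884516 counted reads. The 10 cardiomyocyte markers summed to 72900 to 103000 CPM (read counts scaled to a common library size by the TMM method) in noninduced and 95300 to 113000 CPM in Parkin KO libraries, and all 10 had a log2 fold change above 0. Atrial markers, which an apex should hold little of, summed to 121 to 5990 CPM in noninduced and 158 to 1550 CPM in Parkin KO libraries, and all 6 had a log2 fold change below 0 (median -4.25), all at an unadjusted p under 0.05 (background for lower genes 5.54%) and 0 passing. Esr1, on which MerCreMer reads can be counted, stood at 1550 to 4680 CPM in Parkin KO libraries, at 558 and 962 CPM in the libraries labelled noninduced 1 and noninduced 3, and at 24.0 to 64.9 CPM in the other 4. The labelled groups were kept, although Esr1 does not follow the label in those libraries. Y-linked reads numbered 495 to 634 in Parkin KO 2, 5 and 6, where Xist stood at 0.704 to 5.25 CPM, and at most 7 in 8 other libraries, so that sex was unequal between the groups. Noninduced 3 held both kinds of transcript: Xist stood at 77.2 CPM there beside 178 reads of Y-linked genes, so that its sex is unclear. In these bulk samples, fewer cells of a type and less RNA per cell cannot be told apart.

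Promoter sequences were searched for the motifs of several transcription factors, and none of the motifs was found in all of them. The 36 genes lie on 15 chromosomes, and RefSeq promoters (GRCm38.p6, 250 bases before to 50 bases after the start) were matched for 32 of them, giving 34 promoters. NRF1 is a transcription factor known for binding promoters of respiratory chain genes. The letters GCGCNTGCG, searched on both strands as the core of its motif, were found in 10 of the 34 promoters (29.4%), belonging to 9 genes, against 6.31% of 32851 promoters in the table. The stricter spelling GCGCATGCG, a subset of these matches, was found in 2 of them (5.88%, against 1.75%). Motif spellings were chosen after other spellings had been looked at, and a match is a description of the letters only. The examples below show how near the start the letters lie, written 5′ to 3′ on the strand of the gene with the matched letters in capitals.
Ndufa11, chr17:56717692-56717721, plus strand: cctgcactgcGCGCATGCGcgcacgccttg
Ndufa8, chr2:36049349-36049378, minus strand: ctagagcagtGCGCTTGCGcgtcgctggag
Ndufs6, chr13:73328479-73328508, minus strand: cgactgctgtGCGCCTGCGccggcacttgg
Ndufa6, chr15:82354249-82354278, minus strand: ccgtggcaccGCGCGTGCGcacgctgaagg
Ndufb10, chr17:24724430-24724459, minus strand: ctgcccactaCGCAGGCGCagctgtcacct
Ndufa12, chr10:94198905-94198934, plus strand: ctccagctctGCGCCTGCGtagaacgacct

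The first matched base lies at -60 from the start in Ndufa11, at -30 in Ndufa8, at -16 in Ndufs6, at 24 in Ndufa6, at -26 in Ndufb10 and at -120 in Ndufa12, and the match in Ndufb10 is on the other strand. The remaining matches were in Ndufa5, Ndufb4 and Ndufs5. YY1 is a zinc finger factor whose motif often lies just inside a gene's start. Its core letters AAGATGGCG, searched on both strands, were found in 5 promoters (14.7%, against 1.40% of all), all with the first base between 23 and 36 after the start, and all 5 are shown for that shared position.
Ndufc1, chr3:51408914-51408943, minus strand: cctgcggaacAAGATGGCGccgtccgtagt
Ndufa9, chr6:126849096-126849125, minus strand: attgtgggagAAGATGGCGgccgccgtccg
Ndufs7, chr10:80249463-80249492, plus strand: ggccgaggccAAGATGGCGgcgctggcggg
Ndufs6, chr13:73328433-73328462, minus strand: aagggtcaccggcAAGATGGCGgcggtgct
Ndufs4, chr13:114388045-114388074, minus strand: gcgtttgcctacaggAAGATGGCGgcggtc

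Ndufs6, an N module subunit, held both motifs, which do not overlap there. The ETS factor letters CCGGAAG were in 4 promoters (11.8%, against 8.86%), the GC box letters GGGCGG in 16 (47.1%, against 35.7%), and the CCAAT box in 10 (29.4%, against 37.4%), each on either strand. The letters TCAAGGTCA of the estrogen-related receptors, which are known for driving energy genes in the heart, were in 0 of these windows and in 0.423% of all promoters.

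Complex I transcripts stood slightly higher in Parkin KO hearts than in noninduced hearts, without any 1 of them passing the test. Of the 35 tested genes, 32 had a log2 fold change above 0, against 52.0% of the 13050 genes tested, and the median was 0.24 (1.18-fold), against 0.01 for all genes. The range ran from -0.18 for Ndufa12 to 0.38 for Ndufa2. At an unadjusted p under 0.05 there were 15 subunit genes higher (42.9%, against a background of 5.82%) and 0 lower (background 5.54%). With Benjamini-Hochberg adjustment in edgeR's quasi-likelihood test, 0 of the 35 genes passed at 0.05, and the background was 0% of all genes. DESeq2 passed 0 of the 35 genes as well, with a background of 0.0767%. The groups overlapped in every gene, so that 0 genes had all Parkin KO libraries above all noninduced ones (background 0.23%) and 0 had them all below (background 0.115%). The 95% interval of the log2 fold change reached a median of 0.239 to each side, and for 27 of the 35 genes it lay within a 1.5-fold change in both directions.

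These counts rested in part on single libraries. The 15 genes at an unadjusted p under 0.05 became 6 without noninduced 1 (background 2.95%), 7 without noninduced 2 (background 2.74%) and 9 without Parkin KO 4 (background 3.55%). Without noninduced 1 and 2 together, an alternative chosen after seeing the data because reads of mitochondrial DNA are most frequent there, all 35 genes were higher, the median log2 fold change was 0.14 and 2 genes, Ndufa6 and Ndufs7, kept an unadjusted p under 0.05 (background 1.83%). Without the libraries labelled noninduced 1 and 3, in which Esr1 goes against the label, 33 genes were higher, the median was 0.19 and 6 genes were under 0.05 (background 2.66%). Among libraries with few Y-linked reads, 5 noninduced and 3 Parkin KO, 32 genes were higher, the median was 0.20 and 4 genes were under 0.05 (background 2.15%). A term for the number of Y-linked reads (few or many, with noninduced 3 among the many) in all 12 libraries left 31 genes higher, a median of 0.20 and 10 genes under 0.05 (background 4.16%).

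**Figure D1:**
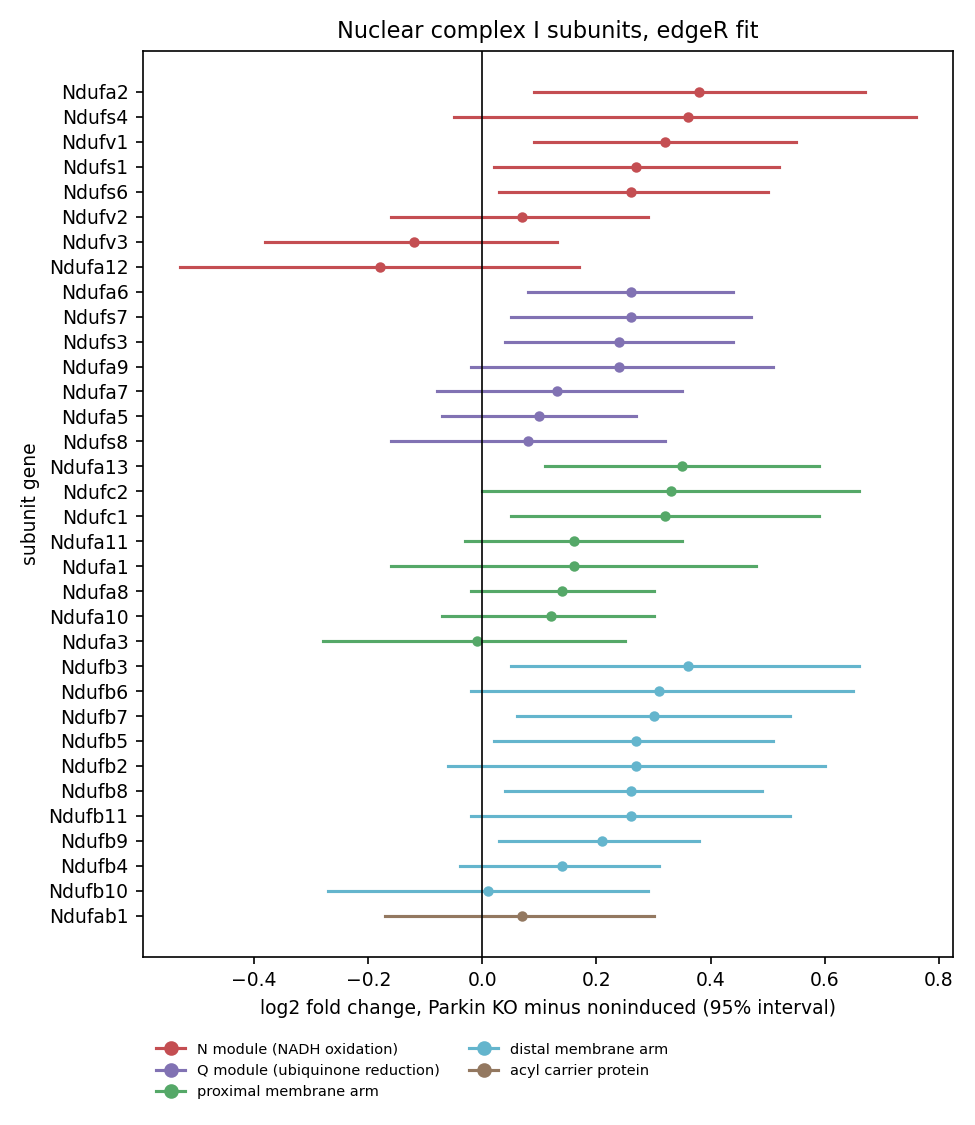
Log2 fold change of 34 of the 35 tested subunit genes, Parkin KO minus noninduced, with its 95% interval from edgeR (n = 6 libraries a group), coloured by place in the complex. Most points lie between 0 and 0.38, Ndufa12, Ndufv3 and Ndufa3 lie below 0, and 14 of the intervals shown lie wholly above 0.

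The N module holds the site where NADH is oxidised. Of its 8 genes, 6 were higher, 4 of them at an unadjusted p under 0.05 (background 5.82%), with a median log2 fold change of 0.27. Ndufv1, the subunit that binds the flavin and takes electrons from NADH, stood at 480, 545 and 718 CPM (lowest, median and highest library) in noninduced and at 609, 691 and 780 CPM in Parkin KO hearts. Of the Parkin KO libraries, 2 lay above all noninduced ones, 5 noninduced libraries lay below all Parkin KO ones, and noninduced 4 was inside the Parkin KO range. The log2 fold change was 0.32 ± 0.108 (SE, edgeR adjusted p = 0.417).

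Ndufs1, the largest subunit of the complex and a carrier of several iron-sulfur clusters, stood at 151, 182 and 219 CPM in noninduced and at 168, 225 and 252 CPM in Parkin KO hearts. The lowest noninduced values were in libraries 2, 6 and 1, while Parkin KO 3, at 168 CPM, lay below the other 3 noninduced libraries, so the groups overlapped. The log2 fold change was 0.27 ± 0.117 (SE, edgeR adjusted p = 0.424). Ndufa2, an accessory subunit with a thioredoxin-like fold, had the highest fold change of all 35 genes, 0.38 ± 0.134 (SE, edgeR adjusted p = 0.417). It stood at 117, 149 and 197 CPM in noninduced and at 150, 207 and 218 CPM in Parkin KO hearts, where 4 libraries lay at 204 CPM or more and libraries 1 and 2 lay at 167 and 150 CPM.

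Other genes of the module covered a wide range of levels. Ndufs6, a zinc-binding subunit, stood at 351, 486 and 578 CPM in noninduced and at 498, 574 and 637 CPM in Parkin KO hearts (log2 fold change 0.26 ± 0.111, SE), and the change was 0.17 without noninduced 2. Ndufs4 is an accessory subunit that is a frequent site of mutation in Leigh syndrome. It stood at 22.1, 37.4 and 59.3 CPM in noninduced and at 41.1, 45.7 and 66.3 CPM in Parkin KO hearts (0.36 ± 0.191, SE). The change of Ndufs4 was 0.23 without noninduced 1 and 0.51 without noninduced 4. Noninduced 4 had the second highest Ndufs4 value of the 12 libraries and noninduced 1 the lowest. Ndufv2, the iron-sulfur partner of Ndufv1, stood at 260, 375 and 436 CPM and at 348, 374 and 411 CPM, so that the medians almost coincided (0.07 ± 0.107, SE, edgeR adjusted p = 0.807). The interval for Ndufv2, from -0.16 to 0.29, allows a small difference in either direction.

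Ndufa12 and Ndufv3, accessory subunits of the same module, had the lowest fold changes. Ndufa12 stood at 390, 537 and 794 CPM in noninduced and at 377, 473 and 609 CPM in Parkin KO hearts, and its log2 fold change was -0.18 ± 0.165 (SE, edgeR adjusted p = 0.645). Ndufv3 stood at 390, 518 and 672 CPM in noninduced and at 448, 478 and 526 CPM in Parkin KO hearts, and its log2 fold change was -0.12 ± 0.120 (SE, edgeR adjusted p = 0.672). Both were highest in noninduced 1 and both had noninduced values wide enough to enclose most or all of the Parkin KO libraries. Without noninduced 1 alone the log2 fold change was -0.06 for Ndufa12 and -0.05 for Ndufv3, without noninduced 6 it was -0.20 for Ndufv3, and without noninduced 1 and 2 it was 0.03 for each gene.

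In the Q module, all 8 genes were higher, with a median log2 fold change of 0.22. Of these, 4 had an unadjusted p under 0.05 (background 5.82%). Ndufa6, an accessory subunit that docks the acyl carrier protein, had the smallest p of all 35 genes. It stood at 131, 155 and 178 CPM in noninduced and at 166, 187 and 201 CPM in Parkin KO hearts, 4 Parkin KO libraries lay above every noninduced one, and noninduced 4 was the 1 noninduced library inside the Parkin KO range. The log2 fold change was 0.26 ± 0.0825 (SE, edgeR adjusted p = 0.417). Ndufs7, which carries the last iron-sulfur cluster before ubiquinone, stood at 514, 622 and 670 CPM in noninduced and at 604, 723 and 838 CPM in Parkin KO hearts. For Ndufs7, 5 Parkin KO libraries lay above every noninduced one and Parkin KO 1, at 604 CPM, lay below 3 of them (0.26 ± 0.0976, SE, edgeR adjusted p = 0.424).

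Ndufs3 belongs to the conserved core of the same module. It stood at 165, 189 and 231 CPM in noninduced and at 205, 225 and 253 CPM in Parkin KO hearts (0.24 ± 0.0932, SE, edgeR adjusted p = 0.424). For Ndufs3, 4 noninduced libraries lay below all Parkin KO libraries, and the groups overlapped in the rest. Ndufs8, a ferredoxin-like core subunit, stood at 232, 343 and 388 CPM in noninduced and at 302, 336 and 378 CPM in Parkin KO hearts, with the higher median in the noninduced group (0.08 ± 0.112, SE, edgeR adjusted p = 0.787). Over the 7 conserved catalytic subunits encoded in the nucleus, all 7 log2 fold changes were above 0, with a median of 0.24. Of these, 5 had an unadjusted p under 0.05 (background 5.82%). The 28 tested accessory subunits had 25 higher, 10 at an unadjusted p under 0.05 (background 5.82%), with a median of 0.25.

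In the proximal membrane arm, 7 of 8 tested genes were higher, with a median log2 fold change of 0.16. Of the 7, 2 had an unadjusted p under 0.05 (background 5.82%). Ndufa13, also known as GRIM-19, crosses the inner membrane at the joint between the arms. It stood at 284, 347 and 436 CPM in noninduced and at 370, 471 and 496 CPM in Parkin KO hearts, 4 Parkin KO libraries lay above every noninduced one, and Parkin KO 1 and 2 lay inside the noninduced range. The log2 fold change was 0.35 ± 0.112 (SE, edgeR adjusted p = 0.417). Exons of Tssk6 on the opposite strand cover 30% of the exon bases of Ndufa13 (chromosome 8, 69894180 to 69902558, GRCm38), and the libraries keep no strand.

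Ndufa3, a small single-pass subunit of this arm, showed no direction that held. It stood at 363, 473 and 620 CPM in noninduced and at 419, 481 and 542 CPM in Parkin KO hearts, so the noninduced range enclosed all Parkin KO libraries. Its log2 fold change was -0.01 ± 0.124 (SE, edgeR adjusted p = 0.976), and the value was 0.03 without a scaling factor. Ndufs5, an intermembrane space subunit, is listed at 0 reads in all 12 libraries of the count table, yet at 158 to 320 FPKM (fragments per kilobase of transcript, scaled to library depth, the unit of the other deposited table) in noninduced and 255 to 384 FPKM in Parkin KO libraries. A near-identical copy, BC002163, shares 319 bases with Ndufs5 at 99.4% identity in the GENCODE transcripts. The part of this copy in the 0 reads was not tested. On log2(FPKM + 1), the change of Ndufs5 was 0.29 ± 0.175 (SE, limma adjusted p = 0.538).

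In the distal membrane arm, which carries the last of the proton pumps, all 10 Ndufb genes were higher. Of these, 5 had an unadjusted p under 0.05 (background 5.82%). The median log2 fold change was 0.26, with a range from 0.01 for Ndufb10 to 0.36 for Ndufb3. Ndufb3 stood at 43.6, 74.5 and 89.0 CPM in noninduced and at 77.3, 92.0 and 100 CPM in Parkin KO hearts, with 4 Parkin KO libraries above all noninduced ones. Ndufb2, the Ndufb gene with the fewest reads, stood at 22.8, 33.3 and 36.6 CPM and at 26.7, 36.0 and 47.9 CPM (0.27 ± 0.156, SE, edgeR adjusted p = 0.483), and the log2 fold change was 0.18 without noninduced 1, without noninduced 2 or without Parkin KO 6. Ndufb10 had its highest value, 873 CPM, in noninduced 1 and the group means were 674 ± 134 and 676 ± 83.1 CPM (SD, n = 6 each). Ndufab1 is the mitochondrial acyl carrier protein, which is built into the complex and also serves fatty acid synthesis. It stood at 115, 157 and 183 CPM in noninduced and at 129, 158 and 181 CPM in Parkin KO hearts, with medians that almost coincided (0.07 ± 0.112, SE, edgeR adjusted p = 0.819).

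**Figure D2:**
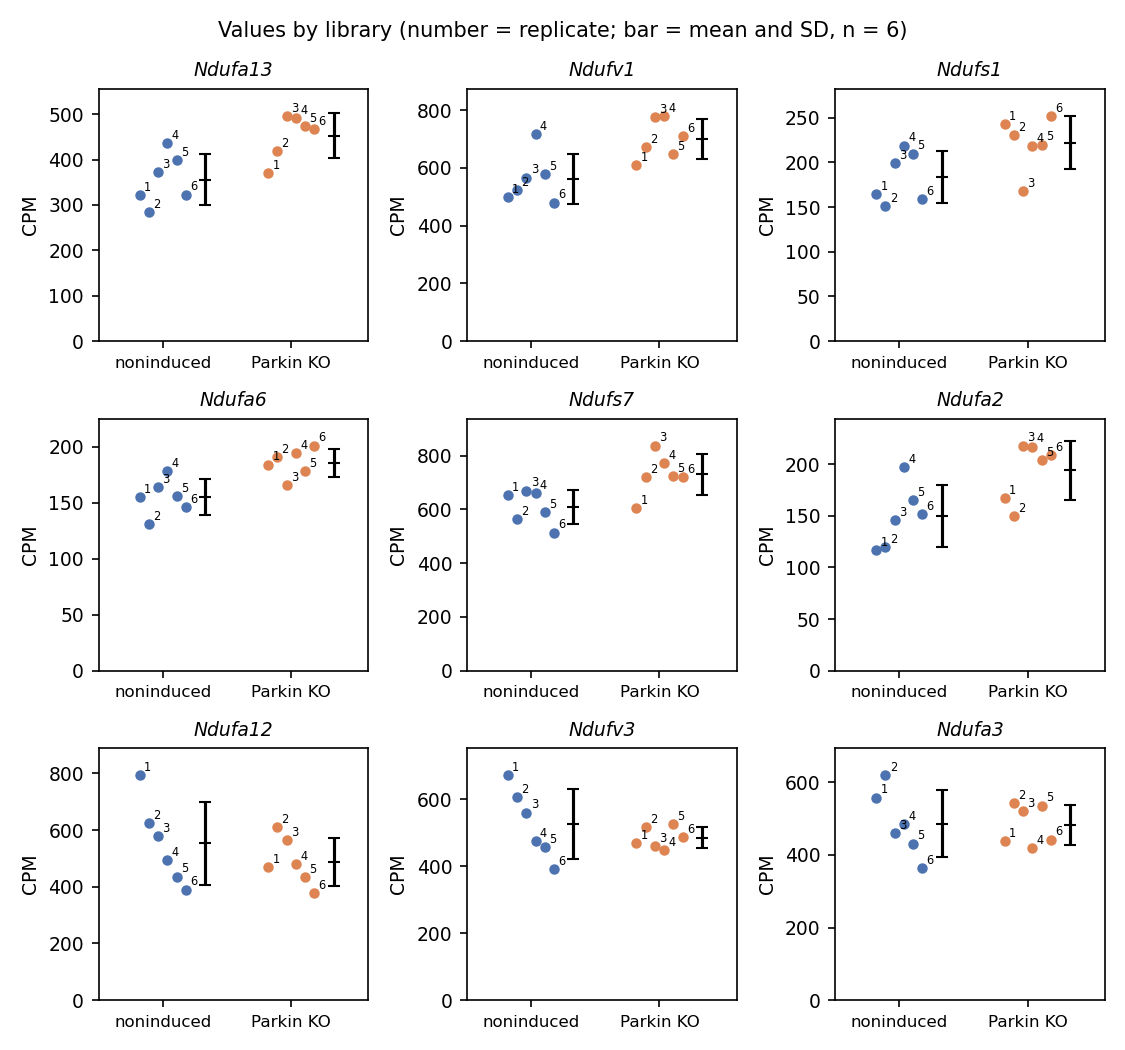
CPM of 9 subunit genes in each library (points, numbered by replicate) with the mean and SD of each group of 6 (black bars), each axis starting at 0. In the upper 6 genes the Parkin KO points sit mostly above the noninduced ones and overlap them, and in Ndufa12, Ndufv3 and Ndufa3 the highest points are noninduced 1 or 2.

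Most of the genes varied together across libraries, with the wider spread in the noninduced group. For each gene, log2 CPM was centred on its mean over the 12 libraries, and a library's score was the average of these values over the 35 genes. It was -0.154, -0.249, -0.012, 0.104, -0.055 and -0.254 in noninduced 1 to 6 and -0.009, 0.075, 0.143, 0.138, 0.144 and 0.129 in Parkin KO 1 to 6. Noninduced 4 lay among the Parkin KO libraries, Parkin KO 1 lay among the noninduced ones, and the SD was 0.141 in noninduced against 0.0608 in Parkin KO hearts (n = 6 each). Complex I reads took up 1.18% ± 0.0638 of all reads in the Parkin KO group, against 1.04% ± 0.111 in the noninduced group (SD, n = 6 each). The lowest library was noninduced 6 for 15 genes, noninduced 2 for 12 and noninduced 1 for 7, so that these libraries held the lowest value of 34 of the 35 genes. In noninduced 6 only Ndufb3 and in noninduced 4 as many as 28 genes stood above their own mean.

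Cell type markers were read in the same libraries. Summed cardiomyocyte markers were lowest in noninduced 6 and 5, and summed fibroblast markers, from 686 to 1770 CPM in noninduced and from 597 to 1180 CPM in Parkin KO libraries, were highest in noninduced 6 and 5. Summed atrial markers were highest in noninduced 5, 6 and 2. Noninduced 6 and 2 also had the lowest complex I scores, while noninduced 5 scored -0.055, above noninduced 1 at -0.154. Skeletal muscle markers ran from 238 to 9170 CPM in noninduced, highest in noninduced 6, and from 559 to 3080 CPM in Parkin KO libraries. Nearly all of this sum was Acta1, at 236 to 9170 CPM in noninduced and 558 to 3080 CPM in Parkin KO libraries. The other markers of that list, Myh1, Myh4, Tnnt3 and Mylpf, did not pass the low-count filter. Smooth muscle and pericyte markers ran from 547 to 886 CPM in noninduced, highest in noninduced 5 and 2, and from 555 to 703 CPM in Parkin KO libraries. Without noninduced 2 and 5, 32 complex I genes were higher, the median log2 fold change was 0.21 and 5 genes had an unadjusted p under 0.05 (background 3.62%). That fit keeps noninduced 6. Without noninduced 6, 28 genes were higher, the median was 0.20 and 10 genes had an unadjusted p under 0.05 (background 6.22%). The part of these cell types in the complex I values was not tested. Endothelial markers ran from 1020 to 1260 CPM and from 1130 to 1370 CPM, and macrophage and leukocyte markers from 74.7 to 96.6 CPM and from 69.7 to 94.2 CPM. Adipocyte markers stayed between 22.3 and 36.0 CPM in all libraries, nearly all of it Cidea (21.9 to 36.0 CPM).

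**Figure D3:**
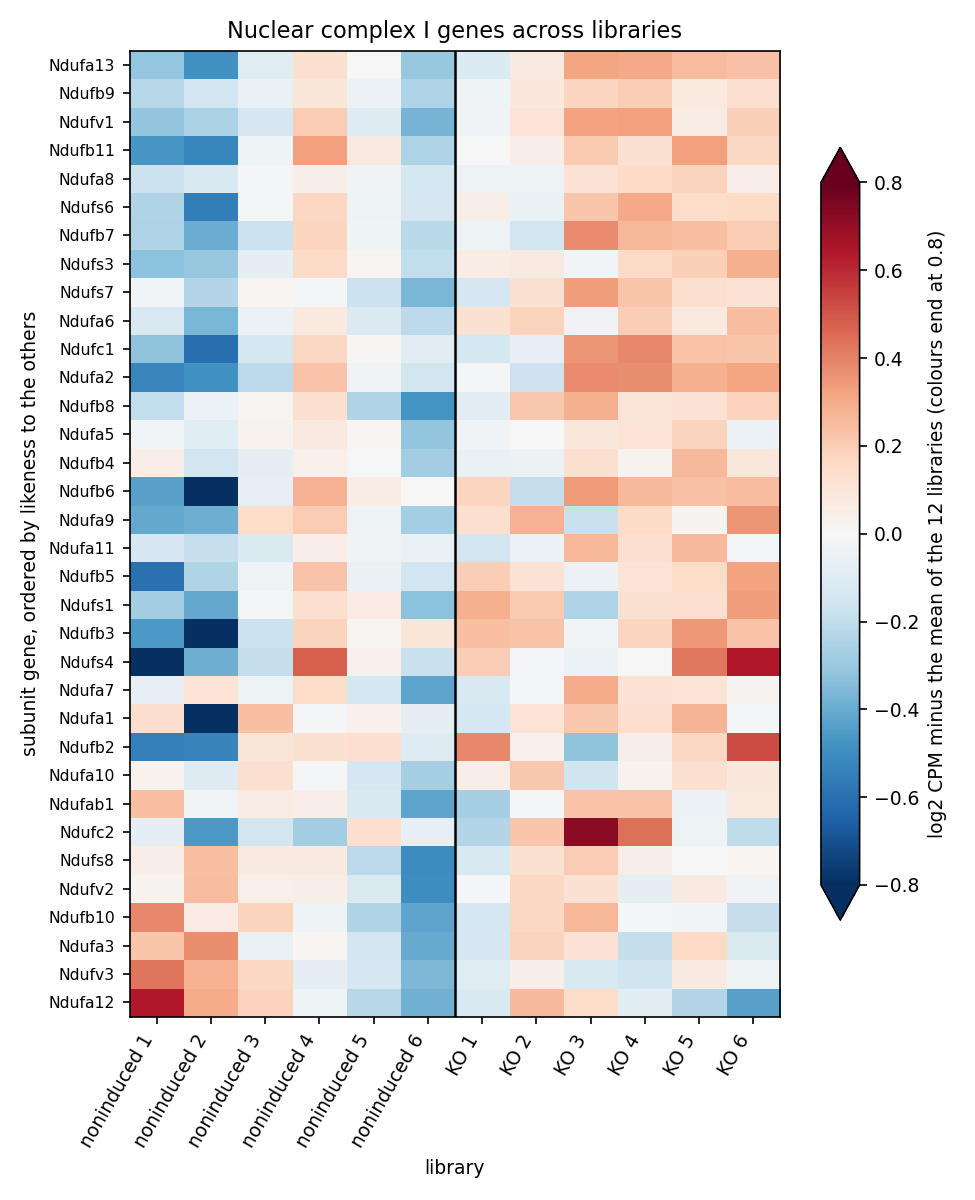
Log2 CPM of 34 of the 35 tested subunit genes minus each gene's mean over the 12 libraries, with genes ordered by their correlation with the mean of the others and a line between the groups. Most rows are blue in noninduced 1, 2 and 6, and the lowest rows turn red in noninduced 1 and 2.

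A smaller set of subunits had their highest value in noninduced 1 or 2. The highest library was a Parkin KO library for 28 genes, and for the other 7 it was noninduced 1 (Ndufa12, Ndufab1, Ndufb10 and Ndufv3) or noninduced 2 (Ndufa3, Ndufs8 and Ndufv2). In noninduced 1, Ndufa12 stood at 794 CPM, above the next library at 625 CPM, while Ndufs4 stood at 22.1 CPM, its lowest. The correlation across the 12 libraries with the mean of the other subunits was above 0.5 for 26 genes, up to 0.95 for Ndufa13 and Ndufb9, and below 0 for Ndufa3 (-0.04), Ndufv3 (-0.25) and Ndufa12 (-0.31). For Ndufb10, Ndufv2, Ndufs8 and Ndufab1 it was 0.12, 0.29, 0.35 and 0.44. Over all 595 pairs of subunits the median correlation was 0.52, and 0.37 with the group means removed. The points share libraries and depth, and these correlations are descriptions.

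The 7 genes came from every part of the complex, with 3 in the N module. Their log2 fold changes ran from -0.18 to 0.08 with a median of 0.01, against 0.10 to 0.38 with a median of 0.26 in the other 28, a difference that the choice by highest library favours. They included 4 of the 6 subunits of highest FPKM (Ndufa3, Ndufv3, Ndufb10 and Ndufa12). GC content of the longest GENCODE transcript was 42.0% to 54.8% with a median of 51.5% in these 7, against 43.1% to 60.4% with a median of 51.0% in the others. Across all 35 genes, GC content and the correlation with the other subunits had a Spearman's rho of 0.44, a description across genes that share libraries. Near-identical copies elsewhere in the genome are annotated for Ndufa12 and Ndufab1 among these 7, and for Ndufb2, Ndufb3, Ndufb4, Ndufb11, Ndufs3 and Ndufs6 among the others. The handling of reads that fit several places is unknown here.

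Levels per length differed far more between subunits than any difference between the groups. Mean FPKM over the 12 libraries was highest for Ndufa3 (3160), followed by Ndufs6 (1660) and Ndufv3 (1630), and lowest for Ndufs4 (32.1), Ndufs1 (78.7) and Ndufb2 (131). The highest was 98.5 times the lowest, and the median was 451. Ndufa3, at 2570 FPKM or more in each library, lay above every value of every other subunit, while Ndufs6 (1010 to 2050) and Ndufv3 (1360 to 1950) overlapped. At the other end Ndufs4 (14.1 to 49.1) lay below Ndufs1 (52.6 to 102), and Ndufs1 overlapped Ndufb2 (77.3 to 188). The core subunits Ndufv1 and Ndufs7 lay between, with mean FPKM of 443 and 1160.

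This order depended on the length used. When CPM was divided by the exon bases of all GENCODE transcripts of a gene, Ndufs6 ranked 1, Ndufb10 ranked 2 and Ndufa3 ranked 4, while Ndufv3 moved from rank 3 by FPKM to rank 19. Ndufs4 and Ndufs1 were among the 4 lowest by either measure. Across the 35 genes, subunits of higher FPKM had lower log2 fold changes (Spearman's rho = -0.49 across genes, which are not independent replicates). With limma on log2(FPKM + 1), 34 of 36 subunits were higher, the median was 0.28, and 0 passed.

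**Figure D4:**
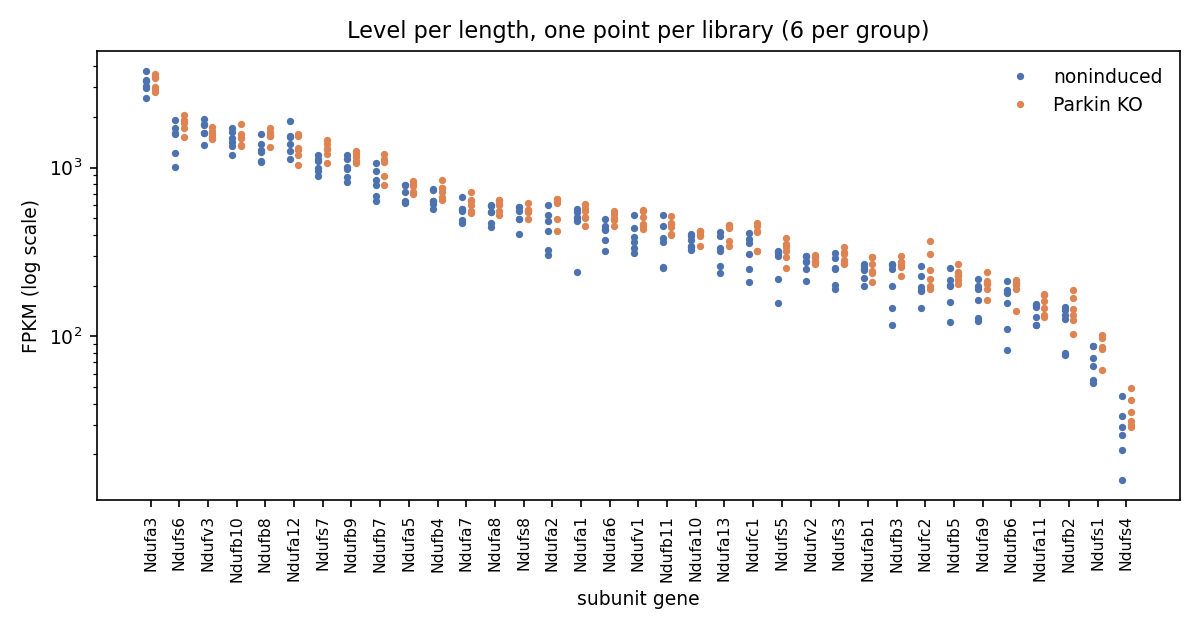
FPKM of 35 of the 36 subunit genes (log axis), 1 point per library, ordered by mean, with 6 noninduced and 6 Parkin KO libraries side by side. Ndufa3 stands alone at the top, Ndufs4 at the bottom, and the groups overlap for each gene.

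Read beside their promoters, the 8 tested genes with the NRF1 letters had log2 fold changes from -0.18 for Ndufa12 to 0.26 (median 0.14). The 5 genes with the YY1 letters, Ndufa9, Ndufc1, Ndufs4, Ndufs6 and Ndufs7, had values from 0.24 to 0.36 (median 0.26), and the 4 with the ETS letters from 0.08 to 0.31 (median 0.27). The median of all 35 genes was 0.24, and no test compared these sets. Ndufa12 and Ndufb10, both with NRF1 letters, also belong to the 7 genes that were highest in noninduced 1 or 2.

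Genes around the complex were read as lists. Of 15 tested assembly factors, the proteins that put the complex together without staying in it, 14 were higher, against 52.0% of all tested genes. The median log2 fold change was 0.17, and 3 factors were higher at an unadjusted p under 0.05 (background 5.82%). Tmem126b, a factor of the membrane arm, averaged 7.69 ± 1.10 CPM in Parkin KO against 5.88 ± 0.937 CPM in noninduced hearts (SD, n = 6 each), with a log2 fold change of 0.38 ± 0.132 (SE, edgeR adjusted p = 0.417), and Timmdc1 was the 1 factor below 0 (-0.13 ± 0.135, SE). Nuclear subunits of the other complexes had medians of 0.21 for complex II (3 of 4 higher), 0.19 for complex III (7 of 9), 0.16 for complex IV (11 of 14) and 0.11 for complex V (11 of 16), each above the 0.01 of all genes. At an unadjusted p under 0.05, the genes higher were 75.0%, 44.4%, 28.6% and 31.2% of complexes II, III, IV and V (background 5.82%). The genes lower at that p numbered 0 in each (background 5.54%). Among the higher genes of these complexes, those of smallest p were Sdhb (0.23 ± 0.0892), Uqcr10 (0.26 ± 0.0879), Cox4i1 (0.33 ± 0.108) and Atp5a1 (0.34 ± 0.117, SE). Among the lower genes they were Sdhc (-0.16 ± 0.182), Uqcrb (-0.32 ± 0.187), Cox8a (-0.09 ± 0.0738) and Atp5l (-0.17 ± 0.187, SE). In each of these lists 0 genes passed. No test compared complex I with these lists.

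The mitochondrial DNA-encoded subunits of the same complex had the opposite sign. All 7 were lower in Parkin KO hearts, against 6267 of the 13050 genes tested. Of the 7, 4 had an unadjusted p under 0.05 (background for lower genes 5.54%). The median log2 fold change was -0.71 and 0 passed. mt-Nd2, a proton-pumping core subunit, stood at 4450, 8250 and 24300 CPM in noninduced and at 4400, 5750 and 8600 CPM in Parkin KO hearts (-0.91 ± 0.353, SE, edgeR adjusted p = 0.424). Reads of all protein genes of mitochondrial DNA were 15.2% and 15.4% of the library in noninduced 1 and 2, 6.25% to 10.0% in the other noninduced libraries, and 4.79% to 8.98% in Parkin KO libraries. The complex I score was -0.154 and -0.249 in noninduced 1 and 2, and -0.254 in noninduced 6, where the mitochondrial share was 7.40%. The part of the mitochondrial share in the complex I score was not tested. With the mitochondrial rows left out before scaling, 31 nuclear subunits were higher, with a median of 0.22 and 14 at an unadjusted p under 0.05 (background 4.72%).

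**Figure D5:**
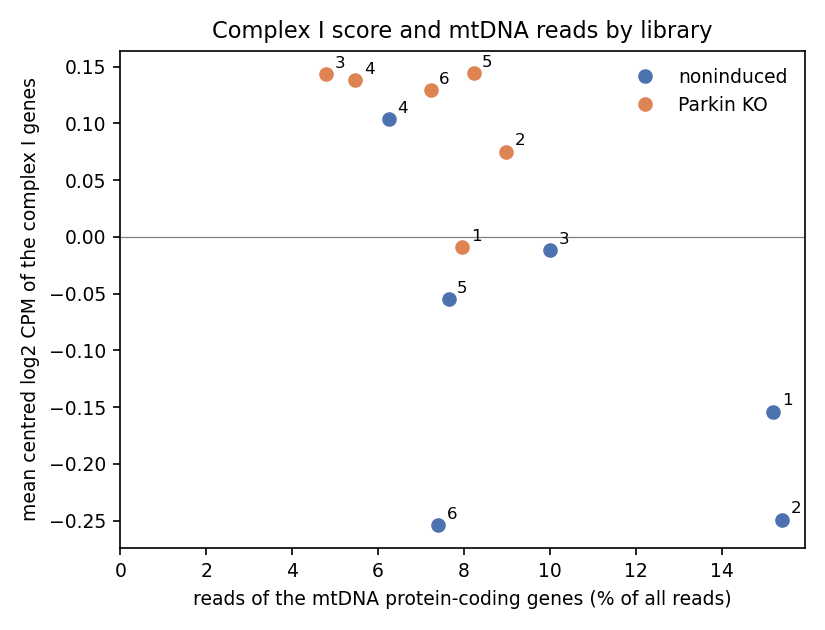
Complex I score (mean centred log2 CPM of the 35 nuclear subunit genes) against the share of reads from protein genes of mitochondrial DNA, 1 numbered point per library. Noninduced 1 and 2 lie at low right, noninduced 6 at low left, and noninduced 4 among the Parkin KO libraries.

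Outside the complex, the genes that followed the complex I score most closely across the 12 libraries were Acadvl, the very long chain acyl-CoA dehydrogenase (r = 0.962), Ndufa4, a protein once counted to complex I and now placed with complex IV (0.961), the histone variant gene H2afv (0.961), Gba2, a glucosylceramidase (0.960), and Suclg1, a subunit of succinate-CoA ligase of the tricarboxylic acid cycle (0.957). They were picked for this likeness out of all tested genes. Their own log2 fold changes were 0.44 ± 0.132, 0.24 ± 0.0891, 0.31 ± 0.0950, 0.18 ± 0.0752 and 0.32 ± 0.0971 (SE), and 0 of the 5 passed in edgeR.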

How the data were processed

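Whole-read counts per gene were deposited by the authors. The submitters' processing notes name Bowtie2, TopHat2 2.0.10, HTSeq and the build mm10. For the annotation, the counting mode and reads that fit several places, nothing is given in the sources used here. Deposited FPKM values were made by the authors, and their processing notes also list Cufflinks 2.1. Columns were matched to labels by group and number.

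The main test used edgeR 4.0.16 in R 4.3.3 (TMM, filterByExpr, quasi-likelihood F test on group, two-sided), which left 13050 genes, adjusted together by Benjamini-Hochberg with a threshold of 0.05. Standard errors and 95% intervals were derived from the estimate and F and are approximate. Levels are CPM on TMM-scaled library sizes, and 1 read was worth 0.0548 to 0.0948 CPM. FPKM was tested with limma 3.58.1 on log2(FPKM + 1) for genes of mean FPKM of at least 1, leaving out 6 genes listed at 0 in libraries with at least 100 reads. DESeq2 1.42.0 was an alternative. The code was tested on simulated data.

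The genes and lists were chosen with earlier results of these data known. Full values are given for Ndufa13, Ndufs1, Ndufv1, the 5 smallest p higher and 2 lower, the catalytic subunits, Ndufab1 and the 3 highest and 3 lowest by FPKM, and beyond these for Ndufb3 and Ndufb10, chosen after their values were seen. Other lists are represented by the gene of smallest p in each direction. Nothing in the labels says whether same-numbered samples share a litter or day. Reads of the targeted gene and the values of 1 subunit gene are not reported here, while the counts and medians over all subunit genes include the latter. Exons of opposite-strand genes cover over 10% of the exon bases of Ndufa2, Ndufa13, Ndufb5, Ndufb6 and Ndufb11, and same-strand exons of Ndufb9.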

Additional observations from a re-analysis of the deposited data

Results flagged for a closer look

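Dixon's criterion was applied to 72 sets of 6 libraries, the CPM of the 35 tested genes and the FPKM of Ndufs5 in each group. In 2 sets a library lay far from the other 5, and chance flags about 1 in 20 sets. Ndufa1, an X-linked membrane arm subunit, stood at 79.2 CPM in noninduced 2, with the next library at 141 CPM, a gap of 0.640 of the group's range. Ndufb6, a distal arm subunit, stood at 50.9 CPM in Parkin KO 2, with the next library at 65.5 CPM, a gap of 0.649 of the range.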

How the results depend on the processing

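The number of complex I genes passing over all genes was 0 under all 27 alternatives. Over leaving out each library in turn, 28 to 33 genes were higher, the median log2 fold change ran from 0.18 to 0.29, and 6 to 19 genes had an unadjusted p under 0.05 (background 2.95% without noninduced 1 and 7.66% without noninduced 4). Over the other 15 alternatives, 31 to 35 were higher and the median ran from 0.14 to 0.28. The number at an unadjusted p under 0.05, 15 in the fit reported, was 9 without a scaling factor (background 4.01%), 6 without noninduced 1 and 3 (2.66%), 5 without noninduced 2 and 5 (3.62%), 4 in libraries with few Y-linked reads (2.15%), 9 on log2(FPKM + 1) with a mean of at least 1 (4.98%), and 2 without noninduced 1 and 2 (1.83%, added after seeing the data). Over all genes, DESeq2 passed 10 and the fit without noninduced 1 and 3 passed 1, against 0 in edgeR, where 1483 genes had an unadjusted p under 0.05.

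Of 459 values of the 17 named genes, 18 changed sign and 441 kept their sign and stayed short of the threshold. Ndufa3 (-0.01) was 0.03 without a scaling factor, 0.00 with the replicate block, 0.01 without noninduced 1 and 3, 0.05 without noninduced 2 and 5, 0.03 in each of the 3 FPKM fits and 0.14 without noninduced 1 and 2, where Ndufa12 and Ndufv3 were 0.03. Leaving out 1 library gave -0.09 to 0.05 for Ndufa3, -0.01 to 0.12 for Ndufs8 and Ndufab1, and -0.02 to 0.11 for Ndufv2. The cause was not tested.

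Same-numbered libraries of the groups had correlations of their deviations from -0.099 to 0.166. Differently numbered libraries were not compared in this way, so whether the numbers pair the libraries was not tested. With the replicate block, 0 genes passed, 33 were higher, the median was 0.25 and 15 were at an unadjusted p under 0.05 (background 7.13%, against 5.82% without the block). With 6 libraries a group, 0 genes reached the adjusted threshold, and Ndufs5 could be read in FPKM alone.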
